A study of Mus musculus with 114 samples.

Results

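Glucocorticoid activation and response were described here through 7 genes chosen by name: Hsd11b1, H6pd, Nr3c1, Nr3c2, Fkbp5, Tsc22d3 and Sgk1. They are 7 of the 29132 genes in the deposited values, and all 7 passed the filter on low values, as did 10343 genes in all. RNA was taken from adipocytes of the perigonadal fat pad of male C57BL/6J mice, which received either control chow (CD) or a diet rich in fat (HFD) for 8, 20 or 34 weeks, beginning when they were 6 weeks old, and which had been without food for 6 hours when they were killed. The 38 mice made 6 groups, of 8 mice for CD at 34 weeks and of 6 mice otherwise, and the 3 technical replicates of a mouse were merged. Adipocytes were taken as the floating fraction of collagenase-treated fat, and plasma hormone levels were not used here. Levels are given in CPM, the reads of a gene per 1000000 reads on genes, and differences on the log2(CPM + 1) scale, with a positive value higher in HFD mice or at the later time.

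Glucocorticoids reach a cell as active corticosterone or as the inert 11-dehydrocorticosterone, and adipocytes can reactivate the latter with 11β-HSD1, the enzyme of Hsd11b1, inside the endoplasmic reticulum. H6pd encodes the hexose-6-phosphate dehydrogenase that supplies this enzyme with NADPH in the same compartment. The active hormone binds the glucocorticoid receptor (Nr3c1) and, with higher affinity, the mineralocorticoid receptor (Nr3c2), which enter the nucleus and bind glucocorticoid response elements (GREs). Fkbp5, a co-chaperone that lowers the receptor's affinity for hormone, Tsc22d3, which encodes the anti-inflammatory protein GILZ, and Sgk1, a serum- and glucocorticoid-regulated kinase, are among the best known targets.

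The bases before a transcription start of each of the 3 targets and of the activating pair are shown as a description. Their relation to the diet differences was not tested. Each run is the 250 bases before a RefSeq start on GRCm38.p6, read 5′ to 3′ on the gene's strand, and capitals mark AGAACA, the hexamer that makes up each arm of a GRE, on either strand. The Sgk1 run is chr10:21993640-21993889 (+), the Tsc22d3 run chrX:140600523-140600772 (-), the Fkbp5 run chr17:28486150-28486399 (-), the Hsd11b1 run chr1:193242361-193242610 (-) and the H6pd run chr4:150003237-150003486 (-). The promoter windows used here held 6 starts for Sgk1, of which the start with a full GRE is shown. They held 3 for Tsc22d3, of which the outermost is shown, and 1 each for Hsd11b1 and H6pd. The windows of Hsd11b1 and H6pd lie inside these genes, which reach upstream to chr1:193264045 and chr4:150009023. The bases before those outer ends are not shown and were not searched.
Sgk1: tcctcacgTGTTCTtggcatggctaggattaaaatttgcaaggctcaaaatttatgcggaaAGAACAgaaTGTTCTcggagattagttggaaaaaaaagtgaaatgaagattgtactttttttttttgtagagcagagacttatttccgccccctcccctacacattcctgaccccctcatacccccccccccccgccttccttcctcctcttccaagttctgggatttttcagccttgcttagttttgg
Tsc22d3: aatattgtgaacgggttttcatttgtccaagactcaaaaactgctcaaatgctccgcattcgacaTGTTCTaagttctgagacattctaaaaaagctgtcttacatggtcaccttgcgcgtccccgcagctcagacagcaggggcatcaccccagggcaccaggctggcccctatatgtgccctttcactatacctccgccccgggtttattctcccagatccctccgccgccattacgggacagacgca
Fkbp5: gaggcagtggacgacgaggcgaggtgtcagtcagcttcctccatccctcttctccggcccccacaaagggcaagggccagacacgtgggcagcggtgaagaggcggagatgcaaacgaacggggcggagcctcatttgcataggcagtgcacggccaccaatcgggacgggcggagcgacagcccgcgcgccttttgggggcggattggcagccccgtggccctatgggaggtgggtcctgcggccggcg
Hsd11b1: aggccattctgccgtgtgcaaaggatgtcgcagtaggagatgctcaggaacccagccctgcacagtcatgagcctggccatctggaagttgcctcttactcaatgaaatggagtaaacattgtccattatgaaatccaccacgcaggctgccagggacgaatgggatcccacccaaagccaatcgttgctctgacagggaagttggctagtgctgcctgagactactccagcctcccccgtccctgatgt
H6pd: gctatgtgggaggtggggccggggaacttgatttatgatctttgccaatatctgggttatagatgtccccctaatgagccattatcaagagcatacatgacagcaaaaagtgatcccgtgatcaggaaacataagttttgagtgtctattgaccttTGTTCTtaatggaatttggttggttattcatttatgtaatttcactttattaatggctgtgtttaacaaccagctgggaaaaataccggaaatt
The Sgk1 run holds a complete palindromic GRE of the form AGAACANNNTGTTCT on either strand, at chr10:21993701-21993715, 189 to 175 bases before the start. Of 32851 promoter windows of this length 3 (0.00913%) held that form, those of Sgk1, Acnat2 and Gm35041. The Sgk1 start was picked for this match, so the match in the run shown was fixed by the choice. The hexamer AGAACA, which the full form contains, was in 16.1% of windows, and there were 3 in the Sgk1 run, 1 each in those of Tsc22d3 and H6pd and none in those of Fkbp5 and Hsd11b1. Those of the Sgk1 run include both arms of its full GRE. These counts depend on the start shown, since the unshown windows of Tsc22d3 and some of those of Sgk1 held none. The relaxed form GNACANNNTGTNC, which also covers the full form and was in 0.387% of windows, had no match in the windows of the other members. No window of Nr3c1 was in the table. A match of letters does not show that the receptor binds there, and GREs outside these windows were not searched for.

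By identifier (Entrez) and position on GRCm38.p6, the genes are Hsd11b1 (15483, chr1:193221640-193264045), H6pd (100198, chr4:149979474-150009023), Nr3c1 (14815), Nr3c2 (110784, chr8:76898083-77245012), Fkbp5 (14229, chr17:28398753-28486149), Tsc22d3 (14605, chrX:140539528-140600522) and Sgk1 (20393, chr10:21882184-21999903). H6pd was the most abundant member per kilobase of exon, and Nr3c2 the least. Exon length was the union of a gene's exons in a GENCODE release later than the vM2 used for counting. It may therefore differ from the bases on which reads were counted. Averaged over all mice and divided by this length, H6pd was at 173 CPM per kb, followed by Sgk1 at 47.6. Hsd11b1 was at 33.6, Tsc22d3 at 29.8, Nr3c1 at 23.7, Fkbp5 at 10.8 and Nr3c2 at 2.01. The order between these ends moved with the group. In 8 week CD mice Hsd11b1 was at 59.3 ± 3.39 CPM per kb (SD, n = 6), above Sgk1 at 36.7 ± 5.24 and Nr3c1 at 29.6 ± 1.96. Tsc22d3 at 17.6 ± 2.52 and Fkbp5 at 16.1 ± 5.98 did not differ beyond their spread in that group. In 34 week HFD mice the levels per kb of H6pd, 71.9 ± 21.0 (SD, n = 6), and Sgk1, 66.0 ± 24.8, lay within each other's spread, as did those of Nr3c1, 18.9 ± 2.50, and Hsd11b1, 16.9 ± 5.47. Nr3c2 shares 247 exon bases with Gm10649 on the other strand, and the setting used for strand in counting was not given in the sources used here.

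**Figure D1:**
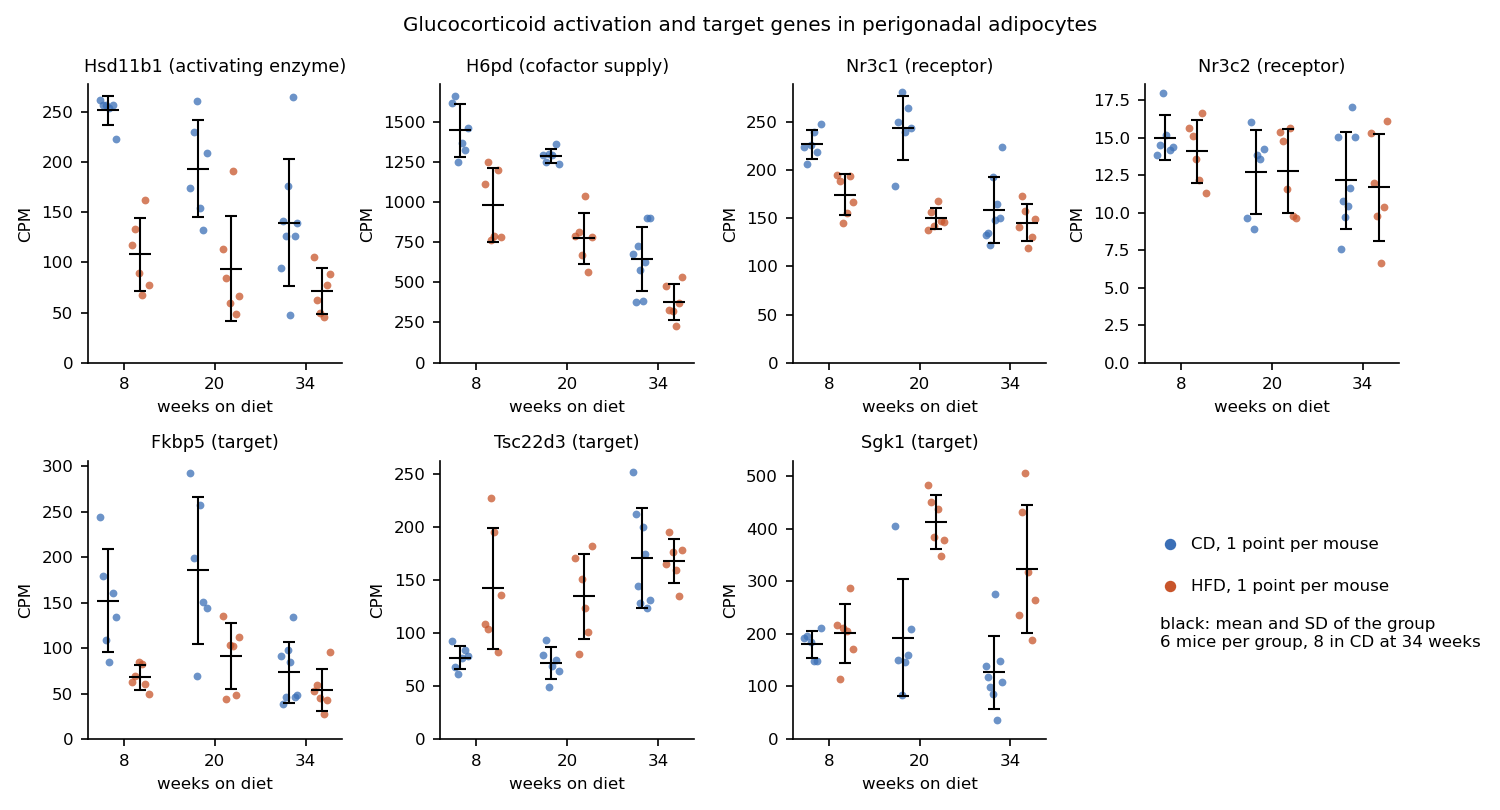
Level in CPM (linear axis from 0) of each of the 7 genes by weeks on diet, with CD mice in blue, HFD mice in orange and the mean and SD of each group in black. Hsd11b1 and H6pd lay lower in HFD mice at each time, Nr3c2 overlapped throughout, and Sgk1 stood at 348 to 483 CPM in all 6 HFD mice at 20 weeks.

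The activating enzyme and its cofactor supply were both lower in HFD adipocytes at all 3 times. At 8 weeks, Hsd11b1 ranged from 223 to 263 CPM (median 257) in CD mice and from 67.6 to 162 CPM (median 104) in HFD mice. Every HFD mouse was below every CD mouse, and the CD mice were close together. The level was 2.43-fold lower in HFD mice (log2 fold change -1.28, standard error (SE) 0.29, adjusted p = 0.000921 by limma). By 20 weeks the CD mice had spread to 133 to 261 CPM (median 192), and the HFD mice lay at 48.5 to 192 CPM (median 75.5). Of the HFD mice 5 of 6 were below all CD mice and the remaining mouse was within their range, and the log2 fold change was -1.16 (SE 0.29, adjusted p = 0.00123). At 34 weeks the diets overlapped widely, with 47.6 to 266 CPM (median 133) in 8 CD mice and 45.7 to 105 CPM (median 70.3) in HFD mice. All 6 HFD mice were still below the CD mean, and the log2 fold change was -0.88 (SE 0.28, adjusted p = 0.0107). Fitted on the 34 week mice alone, the adjusted p was 0.051.

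H6pd was lower in HFD mice as well. It was at 1248 to 1660.4 CPM (median 1415) in CD and 761 to 1251 CPM (median 951) in HFD mice at 8 weeks, when a single HFD mouse reached into the CD range. The difference was -0.58 on the log2 scale (SE 0.19, adjusted p = 0.0144). At 20 weeks the diets were apart, since the CD mice lay at 1235 to 1360.2 CPM (median 1293) and the HFD mice at 562 to 1035 CPM (median 783). That was a 1.69-fold lower level (log2 fold change -0.76, SE 0.19, adjusted p = 0.00117). In older mice both diets were lower, at 377 to 901 CPM (median 652) in CD and 231 to 533 CPM (median 349) in HFD mice, and 4 of 6 HFD mice were below all CD mice. The diet difference at 34 weeks was also -0.76 (SE 0.18, adjusted p = 0.0013).

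The other genes of steroid and NADPH handling were called in both directions, in a number near the share of all genes called. Of 19 listed genes 9 passed the filter, with 3 higher and 1 lower at 8 weeks, 4 and 1 at 20 weeks and 2 and 2 at 34 weeks. Of all genes tested 44.9%, 57.0% and 43.2% were called at these times. Star, which carries cholesterol to the inner mitochondrial membrane for steroid synthesis, was lower at all 3 times, from 15.2 ± 3.84 CPM (SD, n = 6) in CD to 2.76 ± 0.898 in HFD mice at 8 weeks, a log2 fold change of -2.10 (adjusted p = 8.24e-08). Its changes at 20 and 34 weeks were -1.36 and -0.61, and the call at 34 weeks was lost without HFD mouse 4 or 5 (adjusted p = 0.0514 and 0.0655) or with the 34 week mice fitted alone (0.0523). Srd5a3, a polyprenol reductase of the steroid 5-alpha-reductase family, was higher at all 3 times, by 0.45, 0.77 and 0.50 log2. G6pdx and Pgd, the NADPH-producing dehydrogenases of the cytosolic pentose phosphate pathway, were higher at 8 weeks (0.57 and 0.68 log2) and 20 weeks (0.60 and 0.50), the opposite direction to H6pd in the endoplasmic reticulum. The call of Pgd at 20 weeks was lost without HFD mouse 3 (adjusted p = 0.0558) and with TMM, median-of-ratios factors, edgeR or DESeq2 (0.0805 to 0.142). Slc37a4, which transports glucose-6-phosphate into the endoplasmic reticulum where it is the substrate of H6pd, was lower at 34 weeks (-0.37 log2, adjusted p = 0.00314, but 0.0577 with these mice fitted alone). Abcb1b, an efflux pump that can export corticosteroids, was higher at 20 weeks (0.71) and 34 weeks (1.17). At 20 weeks it was at 0.00051 (limma adjusted p = 0.999) with macrophage markers as a covariate and at 0.13 (0.574) with adipocyte markers. Hsd11b2, which inactivates corticosterone, averaged 0.243 to 0.791 CPM per group and was not tested. TMM scaling divides each library by a factor estimated from the bulk of its genes. With it the listed genes split 3 higher and 3 lower at 20 weeks and 2 higher and 5 lower at 34 weeks. Of all 10343 genes tested, TMM gave 2807 higher and 3248 lower at 20 weeks, and 2292 and 2253 at 34 weeks.

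Of the receptors, Nr3c1 was lower in HFD adipocytes at 8 and 20 weeks and Nr3c2 did not pass the test at any time. Nr3c1 was at 206 to 248 CPM (median 225) in CD and 145 to 195 CPM (median 178) in HFD mice at 8 weeks. The diets did not overlap, and the log2 fold change was -0.39 (SE 0.11, adjusted p = 0.00722). They were also apart at 20 weeks, at 184 to 281 CPM (median 248) against 138 to 168 CPM (median 147). This was the largest fall of the receptor, 1.61-fold (log2 fold change -0.69, SE 0.11, adjusted p = 6.7e-06). At 34 weeks the 8 CD mice lay at 122 to 224 CPM (median 149), in the range of the HFD mice at 119 to 173 CPM (median 145). The log2 difference was then -0.11 (95% confidence interval -0.33 to 0.11, adjusted p = 0.41).

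Nr3c2 had 70 to 234 reads per mouse and the same medians in both diets, 14.4 CPM at 8 weeks and 11.2 CPM at 34 weeks. It ranged over 13.8 to 17.99 CPM in CD and 11.3 to 16.7 CPM in HFD mice at 8 weeks, over 8.90 to 16.0 (median 13.7) and 9.67 to 15.7 CPM (median 13.2) at 20 weeks, and over 7.55 to 17.04 and 6.65 to 16.1 CPM at 34 weeks. The diets overlapped at each time. The 95% confidence intervals of the log2 fold change were -0.45 to 0.26, -0.34 to 0.37 and -0.40 to 0.27 at 8, 20 and 34 weeks, so that changes within these bounds were not excluded.

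The genes of receptor chaperones and coregulators, 20 in all and each tested, were called in both directions. At 8 weeks 1 was higher and 6 lower, at 20 weeks 5 and 4, and at 34 weeks 4 and 2, while TMM scaling gave 1 and 9, 2 and 8, and 3 and 4. Without TMM 44.9%, 57.0% and 43.2% of all genes tested were called at these times. These were 29.8% higher and 15.1% lower at 8 weeks, 38.3% and 18.7% at 20 weeks, and 27.5% and 15.7% at 34 weeks. With TMM 2299 of 10343 genes were called higher and 2306 lower at 8 weeks. The counts were 2807 and 3248 at 20 weeks, and 2292 and 2253 at 34 weeks. Nrip1, a corepressor of nuclear receptors that restrains oxidative metabolism in fat, was lower at all 3 times (-0.70, -0.49 and -0.67 log2), at 439 ± 44.1 against 278 ± 81.5 CPM (SD, n = 6) at 8 weeks. Its call at 20 weeks was lost without CD mouse 2, 5 or 6 or HFD mouse 1, 5 or 6 (adjusted p of 0.0745 to 0.0921) and without a filter on low values (0.0622). Ncoa1, a coactivator, was lower at 8 weeks (-0.57) and 20 weeks (-0.62), and Crebbp, an acetyltransferase coactivator, at 8 weeks (-0.73). The coactivator Ncoa3 (0.89) and the constitutive chaperone Hspa8 (0.50) were higher at 34 weeks, although Ncoa3 was not called with these mice fitted alone (adjusted p = 0.0527).

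The 3 targets did not move together. Fkbp5 was lower in HFD mice at 8 and 20 weeks, Tsc22d3 was higher at the same times, and Sgk1 was higher at 20 and 34 weeks. Fkbp5 was at 85.2 to 244 CPM (median 148) in CD and 49.4 to 84.6 CPM (median 65.7) in HFD mice at 8 weeks, without overlap. It was 2.13-fold lower (log2 fold change -1.09, SE 0.33, adjusted p = 0.0084). At 20 weeks the ranges were 69.9 to 292 CPM (median 175) and 44.6 to 135 CPM (median 103), and 2 of 6 HFD mice were below all CD mice. All 6 were below the CD mean, and the log2 fold change was -0.996 (SE 0.33, adjusted p = 0.0109). By 34 weeks Fkbp5 was at 38.3 to 134 CPM (median 66.3) in CD and 27.3 to 95.3 CPM (median 49.0) in HFD mice, a difference of -0.41 log2 that did not pass the test (95% confidence interval -1.04 to 0.22, adjusted p = 0.294).

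Tsc22d3 was 1.74-fold higher in HFD mice at 8 weeks, although the diets overlapped. CD mice lay at 61.5 to 92.0 CPM (median 77.2) and HFD mice at 82.0 to 227 CPM (median 122), and 5 of 6 HFD mice were above all CD mice. The log2 fold change was 0.80 (SE 0.21, adjusted p = 0.00275). At 20 weeks the pattern was alike, with 49.3 to 93.2 CPM (median 71.4) in CD and 79.9 to 182 CPM (median 137) in HFD mice, and the log2 fold change was 0.87 (SE 0.21, adjusted p = 0.000698). At 34 weeks the diets overlapped fully, at 124 to 252 CPM (median 159) in CD and 135 to 195 CPM (median 170.5) in HFD mice. The difference was 0.01 log2 (95% confidence interval -0.38 to 0.41, adjusted p = 0.961).

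For Sgk1 the diet difference was absent from the calls at 8 weeks and present later. At 8 weeks CD mice lay at 148 to 210.3 CPM (median 188) and HFD mice at 115 to 286 CPM (median 209), with a log2 difference of 0.12 (95% confidence interval -0.51 to 0.76, adjusted p = 0.772). At 20 weeks the HFD mice had 348 to 483 CPM (median 410.1) and the CD mice 84.3 to 405 CPM (median 155). A single CD mouse was in the HFD range and the next stood at 209 CPM, and the log2 fold change was 1.26 (SE 0.31, adjusted p = 0.000963). At 34 weeks HFD mice lay at 188 to 505 CPM (median 290.5) and CD mice at 37.1 to 277 CPM (median 114). The gene was then 2.73-fold higher (log2 fold change 1.45, SE 0.29, adjusted p = 0.000314), and 3 of 6 HFD mice were above all 8 CD mice.

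**Figure D2:**
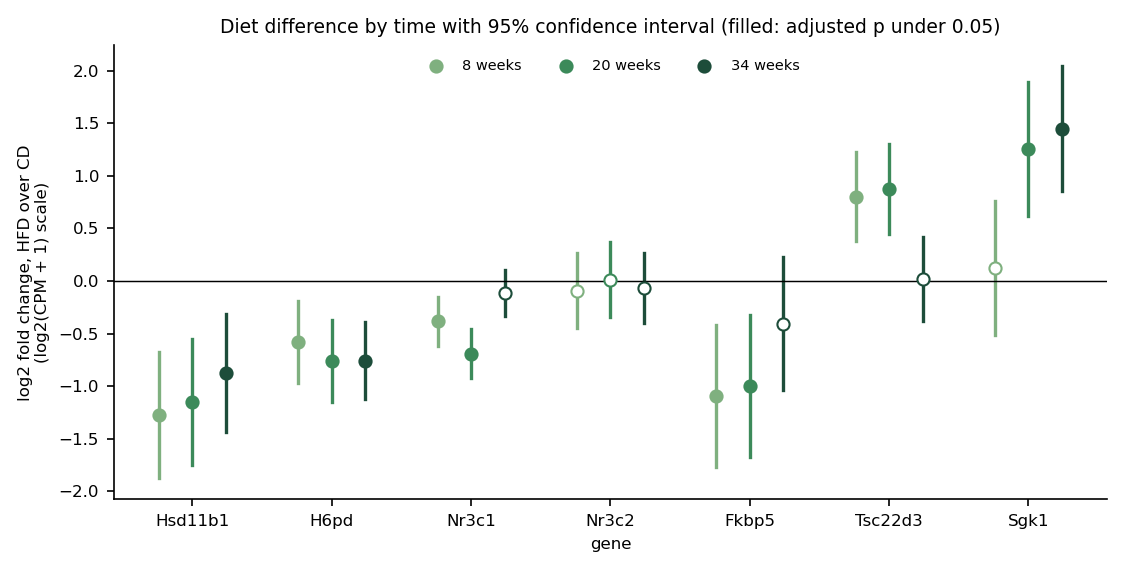
Log2 fold change of HFD over CD (vertical axis, log2(CPM + 1) scale) of each gene at 8, 20 and 34 weeks, with 95% confidence intervals and filled points where the adjusted p was under 0.05. Hsd11b1 and H6pd were below 0 at all 3 times, while Fkbp5 (-1.09 and -0.996) and Tsc22d3 (0.80 and 0.87) lay on opposite sides at 8 and 20 weeks.

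Counted together, 5 of the 7 genes were called at 8 weeks (1 higher, 4 lower), 6 at 20 weeks (2 higher, 4 lower) and 3 at 34 weeks (1 higher, 2 lower). Of all genes tested 44.9%, 57.0% and 43.2% were called at these times, so a call as such is common in these data. The direction of all genes leaned the other way, since 29.8% were called higher and 15.1% lower at 8 weeks, 38.3% and 18.7% at 20 weeks, and 27.5% and 15.7% at 34 weeks. That lean depends on the scaling, because TMM gave 2299 higher and 2306 lower genes at 8 weeks against 3083 and 1565 without it, 2807 and 3248 at 20 weeks against 3957 and 1937, and 2292 and 2253 at 34 weeks against 2840 and 1628. The median log2 fold change of all genes was 0.11, 0.14 and 0.07 without TMM and 0.00, -0.05 and -0.01 with it, while the 7 genes had medians of -0.39, -0.69 and -0.11 without TMM and -0.50, -0.89 and -0.20 with it. The calls and directions of the 7 genes for diet were the same in number under both scalings. Their diets did not overlap for 3 genes at 8 weeks, for 2 at 20 weeks and for none at 34 weeks, against 22.8%, 37.2% and 2.46% of all genes. All 5 had HFD lower, as had 7.14% of all genes at 8 weeks, 11.1% at 20 weeks and 0.986% at 34 weeks, while HFD was higher without overlap in 15.7%, 26.1% and 1.47%.

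Other genes known to be raised by glucocorticoids were called in both directions. Of 25 listed genes 23 were tested, and 4 were higher and 7 lower at 8 weeks, 6 and 9 at 20 weeks, and 6 and 11 at 34 weeks. Of all genes tested 44.9%, 57.0% and 43.2% were called at these times. The median log2 fold changes of the 23 genes were -0.43, -0.22 and -0.35. The metallothioneins Mt1 and Mt2, which bind zinc and other metals, were lower at all 3 times. Mt2 fell from 1293 ± 188 to 511 ± 137 CPM (SD, n = 6) at 8 weeks, and its log2 fold changes were -1.37, -1.58 and -0.75 at 8, 20 and 34 weeks. Those of Mt1 were -1.15, -1.29 and -0.55. Glul, glutamine synthetase, had log2 fold changes of -0.72, -0.96 and -0.47, and Sult1a1, a sulfotransferase, had fold changes of -0.71, -1.56 and -0.54. At 34 weeks the call of Mt1 was lost without CD mouse 2 or 3 or HFD mouse 2, 3 or 5 (adjusted p of 0.0508 to 0.0905), and that of Sult1a1 without CD mouse 6 or HFD mouse 2, 3 or 5 (0.0558 to 0.082). With the 34 week mice fitted alone Mt1, Mt2 and Sult1a1 were not called (0.115, 0.0648 and 0.0749).

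The listed genes called higher at all 3 times were Cdkn1a, Anxa1, Dusp1 and Ddit4, of which Dusp1 at 8 weeks and Cdkn1a at 34 weeks depended on single mice. Cdkn1a, the cell cycle inhibitor p21, went from 54.9 ± 11.2 CPM (SD, n = 6) in CD to 178 ± 75.5 CPM in HFD mice at 8 weeks, with log2 fold changes of 1.58, 2.41 and 1.00. The call at 34 weeks was lost without CD mouse 4 or 6 or HFD mouse 2 or 3 (adjusted p of 0.0511 to 0.0705) and with these mice fitted alone (0.080). Anxa1, an anti-inflammatory annexin that macrophages and other leukocytes also make, had 0.94, 1.13 and 0.79. The MAP kinase phosphatase Dusp1 had 0.74, 1.18 and 0.94. Its call at 8 weeks was lost without CD mouse 1, 2 or 3 or HFD mouse 3, 4 or 6 (adjusted p of 0.0575 to 0.0775), and with TMM, median-of-ratios factors, no filter, edgeR or DESeq2 (0.0505 to 0.0641), and its call at 34 weeks with these mice fitted alone (0.0639). Ddit4, an inhibitor of mTORC1, was low in level, at 4.91 ± 1.68 against 9.51 ± 2.10 CPM at 8 weeks, and had 0.86, 1.04 and 0.92. Among genes called at fewer times, Fbxo32, a ubiquitin ligase of muscle wasting, was higher at 20 weeks (1.89) and 34 weeks (1.42). Pck1, an enzyme on the route to glycerol-3-phosphate for re-esterification in fat, was lower at 20 weeks (-1.35) and 34 weeks (-1.45). So was the lipocalin Lcn2 (-2.28 and -2.24). Klf9, a transcription factor induced by the receptor, was lower at 8 weeks (-0.86) and 20 weeks (-0.67), and Angptl4, an inhibitor of lipoprotein lipase, at 8 weeks (-0.65).

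**Figure D3:**
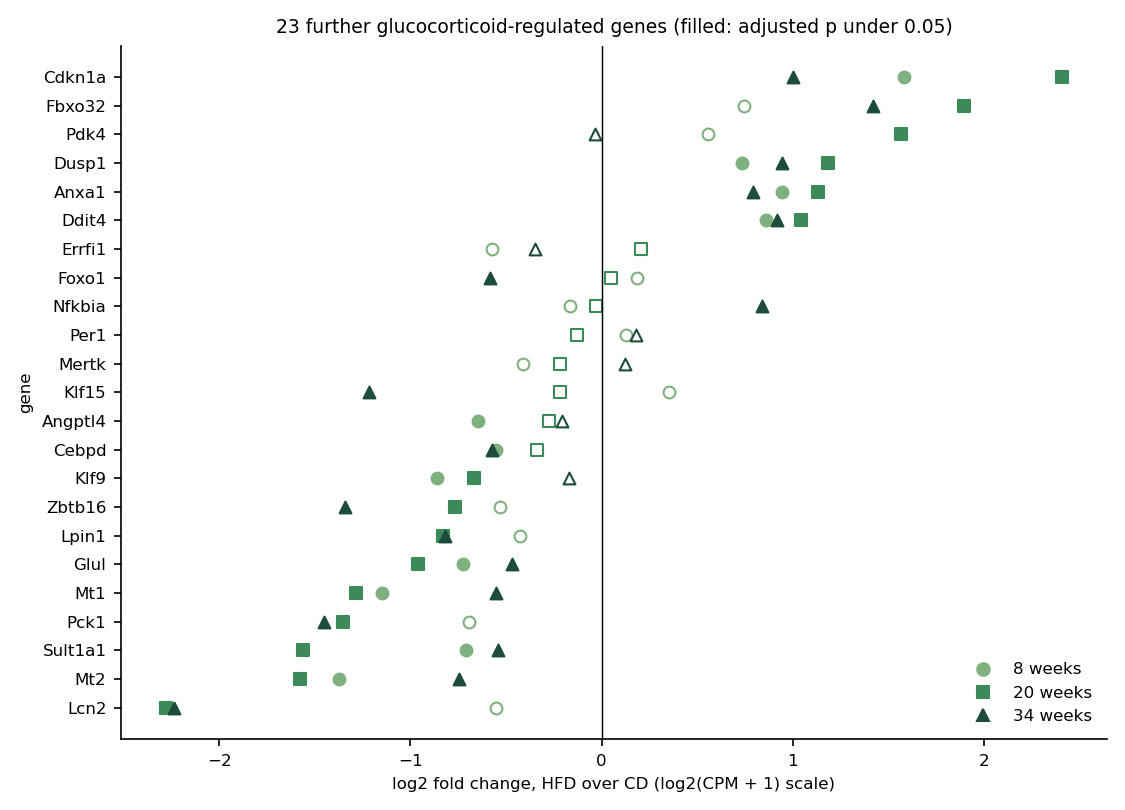
Log2 fold change of HFD over CD (horizontal axis, log2(CPM + 1) scale) of 23 further glucocorticoid-regulated genes at 8 weeks (circles), 20 weeks (squares) and 34 weeks (triangles), ordered by the value at 20 weeks and filled where the adjusted p was under 0.05. Values run from -2.28 for Lcn2 to 2.41 for Cdkn1a, both at 20 weeks.

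Time on the chow diet moved most of the 7 genes as well. No member passed the test between 20 and 8 weeks in CD mice, where limma, edgeR and DESeq2 each called 0, the unadjusted p was under 0.05 for 0, and 1.70% of all genes were called higher and 1.88% lower. Between 34 and 8 weeks limma called 6, 1 higher and 5 lower, beside 64.7% of all genes (40.1% higher, 24.6% lower). With TMM or median-of-ratios factors, edgeR or DESeq2 all 7 were called, since Nr3c2 was then called lower as well (-0.32, adjusted p = 0.0895 by limma without these factors). H6pd fell by 1.22 on the log2 scale (SE 0.18, adjusted p = 9.51e-07), Fkbp5 by 1.09 (adjusted p = 0.00273), Hsd11b1 by 0.98 (adjusted p = 0.00244) and Nr3c1 by 0.54 (adjusted p = 6.69e-05). Tsc22d3 rose by 1.11 (SE 0.20, adjusted p = 1.34e-05), so that the lowest 34 week CD mouse, at 124 CPM, was above the highest 8 week CD mouse, at 92.0 CPM. Sgk1 fell by 0.67 (adjusted p = 0.0425), a call that was lost without any of 9 mice (CD mice 1, 2, 3 and 6 at 8 weeks and 2, 3, 4, 6 and 8 at 34 weeks), with adjusted p of 0.0506 to 0.126. In HFD mice H6pd alone was called between 34 and 8 weeks (-1.40, adjusted p = 1.38e-06), beside 52.5% of all genes (31.7% higher, 20.8% lower), and Nr3c1 (-0.26, adjusted p = 0.0527) and Sgk1 (0.65, adjusted p = 0.0784) stood near the threshold.

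The diet difference itself changed with time in 3 genes. The difference for Sgk1 was 1.33 log2 larger at 34 than at 8 weeks (SE 0.43, adjusted p = 0.0193). Tsc22d3 had a smaller difference at 34 weeks than at 8 weeks (-0.79, SE 0.29, adjusted p = 0.0372) and than at 20 weeks (-0.86, adjusted p = 0.0496). Both calls for Tsc22d3 were weak, since leaving out any of 9 mice ended the former (adjusted p of 0.0508 to 0.0849) and any of 26 of 38 mice the latter (0.0508 to 0.102). For the former these were CD mice 2 and 3 and HFD mice 3, 4 and 6 at 8 weeks, and CD mice 1 and 2 and HFD mice 4 and 5 at 34 weeks. For Nr3c1 the diet difference was smaller at 34 than at 20 weeks, a change of 0.58 (SE 0.16, adjusted p = 0.0161), and was called without each mouse in turn (adjusted p of at most 0.0354). Of all genes 28.8% changed their diet difference between 8 and 34 weeks (13.0% upward, 15.9% downward), 10.5% between 20 and 34 weeks (4.22% and 6.31%), and 4.49% between 8 and 20 weeks (2.81% and 1.67%). No member did so between 8 and 20 weeks with limma, edgeR or DESeq2, and 1 had an unadjusted limma p under 0.05, Sgk1 (1.13, adjusted p = 0.104). These comparisons share groups, so the called values at different times are not independent.

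Markers of other cells moved with diet and time in the same RNA. The 10 adipocyte markers summed to a median of 59688 CPM in 8 week CD mice and 41206 CPM in 34 week HFD mice, and none was at 0 in any group. Of these 10, 1 was called higher and 1 lower in HFD mice at 8 weeks, and 1 higher and 7 lower at 20 and at 34 weeks. Of 9 macrophage markers 7, 8 and 9 were called higher at 8, 20 and 34 weeks. Their summed level had medians of 486 and 1725 CPM in CD and HFD mice at 8 weeks, 968 and 5833 CPM at 20 weeks, and 3293 and 9774 CPM at 34 weeks, with ranges of 343 to 2864 and 3988 to 7665 CPM at 20 weeks. Progenitor and fibroblast markers were higher for 6, 9 and 5 of 9 tested and endothelial markers for 8, 7 and 7 of 8, while T and B cell markers summed to at most 4.71 CPM in any mouse. Of 11 clock genes tested 7 were lower at 8 and at 20 weeks and 3 at 34 weeks, and 1 was higher at each time. Immediate early genes, which respond to tissue handling, were called 3 higher and 3 lower at 8 weeks, 4 and 2 at 20 weeks, and 0 and 2 at 34 weeks. Of all genes tested 29.8% were called higher and 15.1% lower at 8 weeks, 38.3% and 18.7% at 20 weeks, and 27.5% and 15.7% at 34 weeks. In such bulk RNA a lower level per adipocyte and a smaller share of adipocyte RNA cannot be told apart.

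Across mice of the same group, the activating genes were lower and 2 targets higher where macrophage markers were higher. The correlation of deviations from the group mean over 38 mice with the macrophage marker mean was -0.64 for Hsd11b1 (Spearman -0.64, permutation adjusted p = 7e-05 over 7 genes, negative in 6 of 6 groups) and -0.54 for H6pd (Spearman -0.61, permutation adjusted p = 0.00128, 6 of 6 groups). For Tsc22d3 it was 0.42 (Spearman 0.43, permutation adjusted p = 0.0128, 5 of 6 groups). For Sgk1 it was 0.63 (Spearman 0.40, permutation adjusted p = 0.00128), but positive in 3 of 6 groups. Nr3c1 (-0.35), Nr3c2 (-0.29) and Fkbp5 (-0.05) did not pass the permutation test with Pearson's r (adjusted p = 0.103, 0.111 and 0.797), but by Spearman's rho Nr3c1 (-0.40, permutation adjusted p = 0.0328) and Nr3c2 (-0.36, permutation adjusted p = 0.0376) did. Without the 2 mice farthest from the median of the macrophage marker mean the 4 correlations were -0.49, -0.49, 0.45 and 0.47.

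When the mean of these markers was added to the fit, a covariate that itself differs between the diets, fewer members were called for diet. The part of these cells in the diet differences was not tested. With macrophage markers 2 members were called at 8 weeks, 1 at 20 weeks and 0 at 34 weeks, where the unadjusted limma p was under 0.05 for 2. Of all genes 34.1%, 22.6% and 7.14% were called in that fit, so the members fell in number together with the genes at large. Those called were Hsd11b1 (-0.67, adjusted p = 0.0447) and Fkbp5 (-1.04, adjusted p = 0.0325) at 8 weeks and Nr3c1 (-0.49, adjusted p = 0.0123) at 20 weeks. At 20 weeks Fkbp5 was at -0.92 (adjusted p = 0.128), while Hsd11b1 went from -1.16 to -0.20 and Sgk1 from 1.26 to 0.26 at that time. The interaction of Sgk1 between 34 and 8 weeks was 1.28 (adjusted p = 0.00363) and that of Nr3c1 between 34 and 20 weeks 0.52 (adjusted p = 0.0208) with this covariate. With adipocyte markers instead, 5, 2 and 0 members were called at 8, 20 and 34 weeks, and 2 had an unadjusted p under 0.05 at 34 weeks, while 47.1%, 38.8% and 6.91% of all genes were called. Of the other listed targets 4 were called at 34 weeks with macrophage markers and 2 with adipocyte markers, against 17 without a covariate. Of the targets higher at all 3 times, Dusp1 and Ddit4 lost each call with macrophage markers. Cdkn1a lost it at 8 and 34 weeks and Anxa1 at 34 weeks. Of those lower at all 3 times, Mt1, Mt2 and Sult1a1 lost the call at 34 weeks and Sult1a1 also at 8 weeks. In the other lists Nrip1 lost each call, Srd5a3 those at 8 and 34 weeks and Star that at 34 weeks. Among named list genes called at fewer times, Pck1, Fbxo32 and Ncoa1 lost each call with macrophage markers. Angptl4 lost its call at 8 weeks, Abcb1b that at 20 weeks, and Ncoa3, Hspa8 and Slc37a4 those at 34 weeks. Klf9, Lcn2, Crebbp, G6pdx and Pgd kept theirs. With immediate early genes 5, 6 and 3 members were called, as without a covariate.

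**Figure D4:**
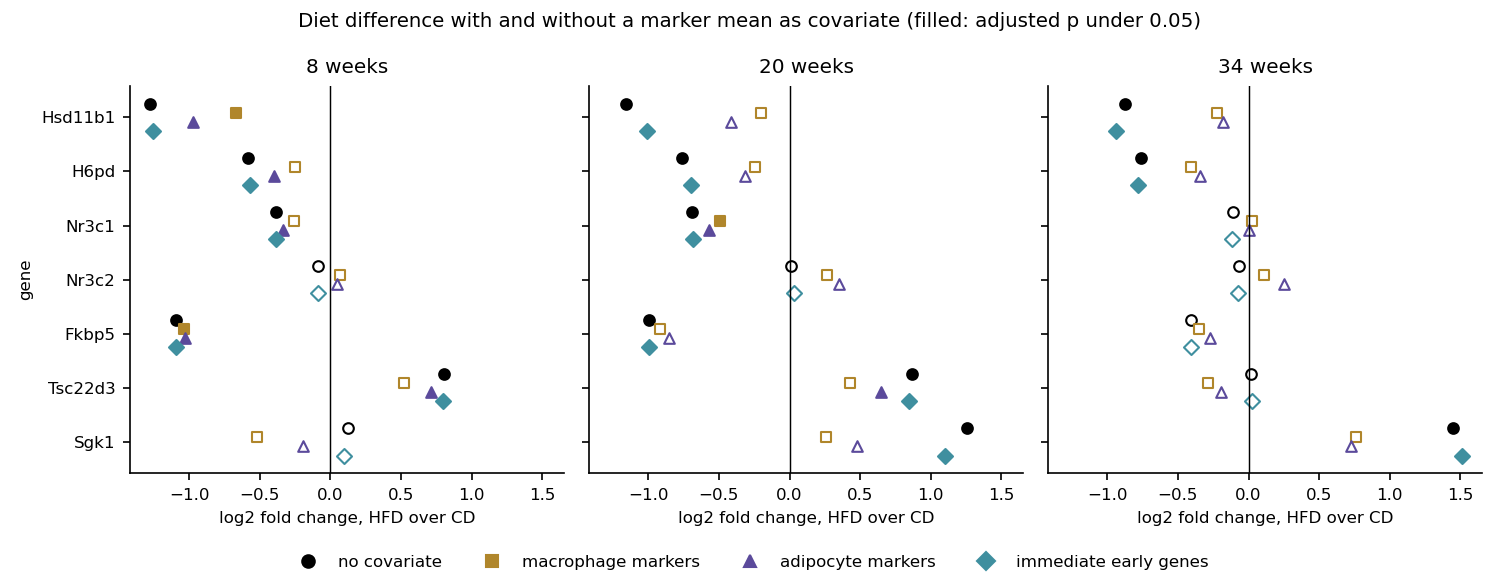
Log2 fold change of HFD over CD (horizontal axis) of each gene at 8, 20 and 34 weeks in fits without a covariate (black circles) and with the mean of macrophage markers (squares), adipocyte markers (triangles) or immediate early genes (diamonds), filled where the adjusted p was under 0.05. Fkbp5 lay between -1.09 and -0.85 at 8 and 20 weeks with macrophage markers, adipocyte markers or no covariate. With macrophage markers Hsd11b1 and Sgk1 moved toward 0 at 20 weeks, while Sgk1 went from 0.12 to -0.52 at 8 weeks.

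Within groups, 5 of the 21 pairs of members were correlated over the 38 mice after adjustment (Pearson, two-sided permutation within groups, Benjamini-Hochberg over 21 pairs), and 3 of them also by Spearman's rho. H6pd and Nr3c2 had the highest r, 0.72 (Spearman 0.64, permutation adjusted p = 0.00063 and 0.00273), which was positive in 4 of 6 groups and -0.68 in 8 week CD mice. Hsd11b1 and H6pd had r = 0.59 (Spearman 0.53, permutation adjusted p = 0.00896 and 0.0191), positive in 5 of 6 groups. At 8, 20 and 34 weeks their r was 0.91, 0.92 and 0.90 in HFD mice but 0.02, -0.63 and 0.35 in CD mice. Fkbp5 and Tsc22d3, whose diet differences were opposite, had r = 0.52 (Spearman 0.55, permutation adjusted p = 0.00798 and 0.00913), positive in 6 of 6 groups. Without the 2 mice farthest from the median of the former gene r was 0.69, 0.46 and 0.42 for these pairs.

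The remaining pairs were Hsd11b1 with Sgk1 (r = -0.48, permutation adjusted p = 0.0451, Spearman -0.31 with adjusted p = 0.168) and Nr3c1 with Tsc22d3 (r = -0.43, permutation adjusted p = 0.0478, Spearman -0.43 with adjusted p = 0.0768). That of Hsd11b1 with Sgk1 was negative in 4 of 6 groups, with r of 0.75 in 20 week HFD mice. It did not pass without the 20 week CD mice (permutation adjusted p = 0.0689), without the 34 week HFD mice (0.111) or with the macrophage marker mean removed (0.574). It also depended on the 34 week CD mice, where r was -0.94 and without which it was -0.15 (adjusted p = 0.529). CD mouse 5 of that group had the lowest Hsd11b1 (47.6 CPM), the highest Sgk1 (277 CPM) and the highest macrophage marker sum (11099 CPM), and CD mouse 6 had the highest Hsd11b1 (266 CPM), the lowest Sgk1 (37.1 CPM) and the lowest sum (1010.2 CPM). That of Nr3c1 with Tsc22d3 had an adjusted p of 0.12 without the same mice and 0.409 without the 8 week HFD mice. It was 0.0797 without the CD mice and 0.0803 without the HFD mice of 20 weeks, and 0.21 with the macrophage marker mean removed. The r of this pair was -0.96 in 8 week HFD mice and 0.79 in 34 week HFD mice. Hsd11b1 with H6pd did not pass without the HFD mice of 8 weeks (adjusted p = 0.0544), 20 weeks (0.0803) or 34 weeks (0.0706), nor with the macrophage marker mean removed (0.187). Fkbp5 with Tsc22d3 did not pass without the 20 week HFD mice (0.0803). After the macrophage marker mean was removed by regression 2 pairs passed, H6pd with Nr3c2 and Fkbp5 with Tsc22d3.

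**Figure D5:**
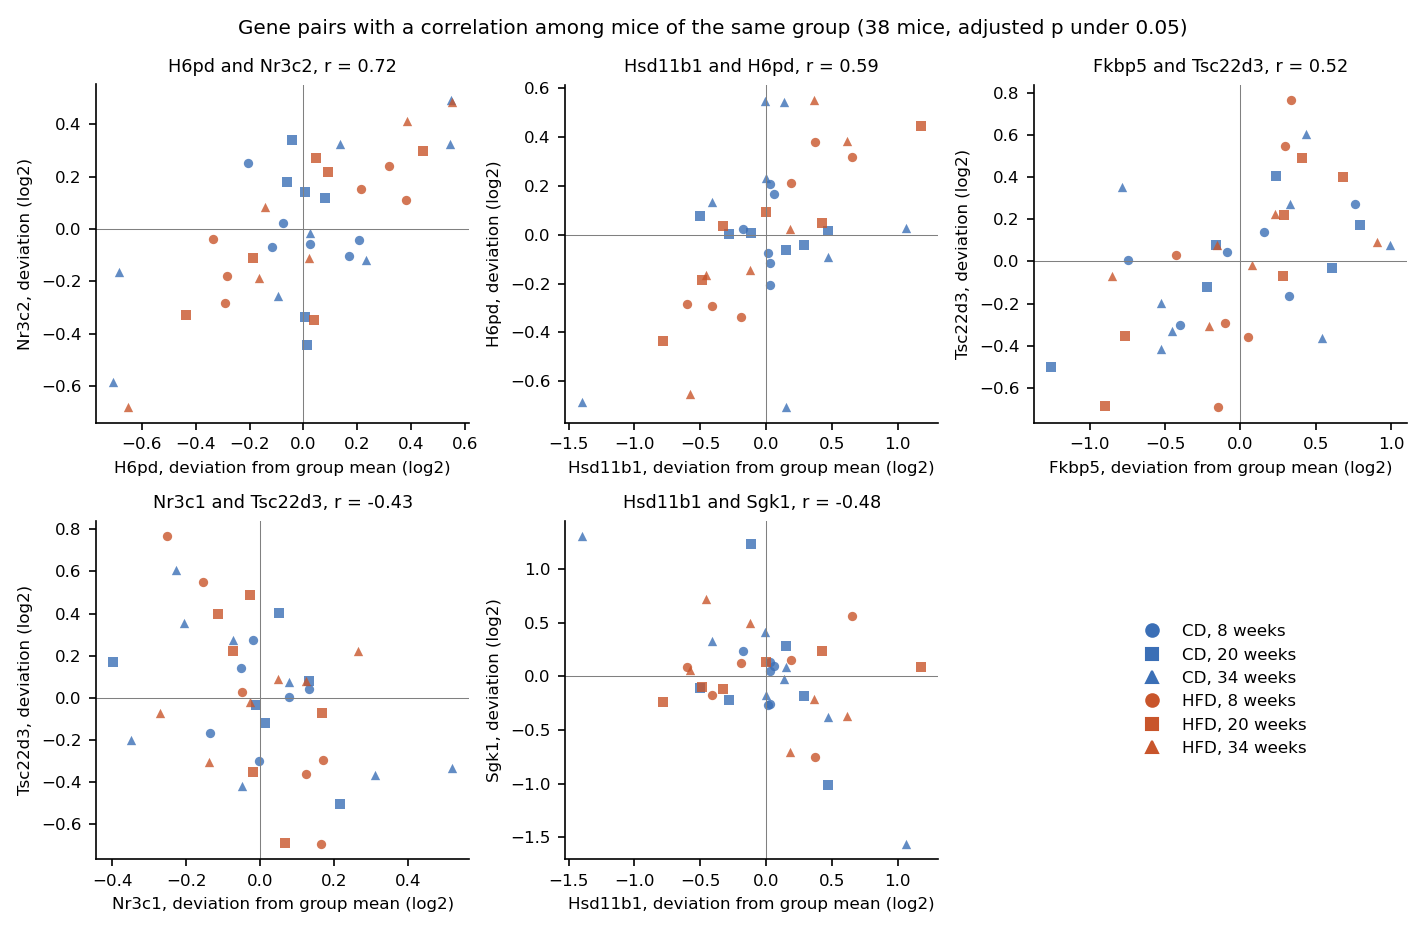
Deviation of each mouse from its group mean (log2, both axes) for the 5 gene pairs whose correlation passed the adjusted permutation test, with diet by colour and time by shape. Fkbp5 and Tsc22d3 were positively correlated in 6 of 6 groups (r = 0.52 over all mice), and the 2 far points of Hsd11b1 and Sgk1 are 34 week CD mice.

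Genes most like each member in the same deviations over 38 mice were given as a description, since they were the highest of all genes tested. H6pd was followed most closely by Cped1 (r = 0.90), Ntrk2 (0.88) and Itih5 (0.88), and Sgk1 by Wdr26 (0.87), Sertad2 (0.86) and Mef2d (0.85). Nr3c2 had Pdzrn3 (0.85), Aox1 (0.82) and Lama4 (0.80), and Hsd11b1 had Dhdh (0.82), Suox (0.80) and Pacsin3 (0.79). The nearest to Nr3c1 were Zmynd11 (0.80), Mapk6 (0.78) and Prkaa1 (0.75), a catalytic subunit of AMP-activated kinase. Fkbp5 was closest to Eef2k (0.74), Arhgap24 (0.74) and Usp2 (0.70), a ubiquitin protease with a daily rhythm, and Tsc22d3 to Dpy19l1 (0.75), Klf13 (0.70) and Uxs1 (0.67).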

How the data were processed

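Adipocyte RNA of 38 mice was measured by RNA-seq (TruSeq stranded mRNA libraries), listed as 114 samples that are 3 technical replicates of each mouse. The authors aligned reads to mm10 with STAR, counted them on the union of exons with featureCounts and GENCODE vM2, and deposited 1 CPM column per mouse with the replicates merged. The submitters' processing notes name STAR 2.5 and 2.5.2b and Subread 1.5.1. Each deposited CPM column sums to 1000000, so no TMM factor is visible, and all values were whole multiples of 1 read within 0.1 reads (100% of values). The recovered reads per mouse ranged from 9275711 to 15480388 (median 12522298.5), without overlap of the diets at 8 weeks, so that 1 read equals 0.0646 to 0.108 CPM, a precision that covers counting error only. In each of 103 within-group pairs the counts differed beyond sampling noise (lowest chi-square over its degrees of freedom 9.99).

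Values were transformed to log2(CPM + 1), a scale that understates changes of low genes, and the 10343 genes with a mean above 2.0 were fitted with limma 3.58.1 (R 4.3.3, mean-variance trend, 6 groups, 32 residual degrees of freedom, two-sided, Benjamini-Hochberg over all genes tested, threshold 0.05). edgeR 4.0.16 and DESeq2 1.42.0 were run on the recovered reads as alternatives. edgeR called 4521, 6042 and 4478 genes for diet at 8, 20 and 34 weeks, against 4648, 5894 and 4468 by limma. The fit was tested on simulated data. Correlations used 100000 permutations of mice within groups. The named genes are the 7 members, the genes of each further list called at all 3 times in the same direction, the 2 largest called changes at each time besides these, and the 3 genes most like each member, with predicted genes passed over. A gene that this rule names is not reported here. The members and lists were chosen with earlier results of these data known. Covariate fits with adipocyte markers or immediate early genes and the correlations with macrophage markers were chosen after seeing the data. Adgre1 and Ciart of the marker lists were not matched, 7 epididymis and 7 T and B cell markers were all below the filter, and the epididymis markers summed to at most 35.3 CPM. Positions and promoter sequences are RefSeq's on GRCm38.p6. The stromal vascular libraries were not analysed here.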

Additional observations from a re-analysis of the deposited data

Results flagged for a closer look

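Among the 7 genes, 3 of 42 groups of mice held a mouse far from the others, where the gap to the nearest mouse on the log2(CPM + 1) scale exceeded Dixon's critical share of the group's range (0.625 for 6 mice, 0.526 for 8), and chance gives about 1 in 20. Hsd11b1 was at 223 CPM in CD mouse 6 at 8 weeks, below the rest of its group. Nr3c1 was at 184 CPM in CD mouse 1 at 20 weeks, also the lowest. Nr3c2 was at 17.99 CPM in CD mouse 3 at 8 weeks, the highest.

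The diet difference differed between times, by the interaction term of limma, in 4 cases. That of Sgk1 was larger at 34 than at 8 weeks by 1.33 log2 (adjusted p = 0.0193). For Tsc22d3 the change was -0.79 from 8 to 34 weeks (adjusted p = 0.0372) and -0.86 from 20 to 34 weeks (adjusted p = 0.0496). For Nr3c1 it was 0.58 from 20 to 34 weeks (adjusted p = 0.0161).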

How the results depend on the processing

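The numbers of members called for diet at 8, 20 and 34 weeks were 5, 6 and 3 without each mouse in turn, and their count moved by over 1.5 times only with marker covariates. These gave 2 (macrophage) at 8 weeks, 1 (macrophage) and 2 (adipocyte) at 20 weeks, and 0 with either at 34 weeks, and the cause was not tested. In HFD mice between 34 and 8 weeks, 2 members rather than 1 were called with TMM, median-of-ratios factors, the groups fitted alone, the replicate block or edgeR, and 3 with DESeq2, with 1 to 2 without single mice. For the diet difference, 20 against 8 weeks gave 1 with the groups fitted alone (0 to 1 without single mice). That of 34 against 8 weeks gave 1 without a filter on low values (1 to 2 without single mice), and that of 34 against 20 weeks gave 1 without the filter, with TMM, median-of-ratios factors, the groups fitted alone, or macrophage or immediate early covariates (1 to 2 without single mice).

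At 34 weeks 10 target genes were called with the groups fitted alone, 4 with macrophage and 2 with adipocyte markers. Steroid genes called were 7 with TMM, median-of-ratios factors, edgeR or DESeq2, 2 with the groups fitted alone and 1 with either marker covariate. Chaperone and coregulator genes called were 11 at 8 weeks, 14 at 20 weeks and 3 at 34 weeks with the groups fitted alone, 2 at 20 weeks and 1 at 34 weeks with macrophage markers, 1 at 34 weeks with adipocyte markers, and 10 with the replicate block (5 to 10 without single mice). Over the 3 lists and times 44 of 78 calls were made with macrophage markers. Of all genes, 2457 rather than 4468 were called at 34 weeks with the groups fitted alone, 2340 rather than 5894 at 20 weeks and 739 at 34 weeks with macrophage markers, and 715 at 34 weeks with adipocyte markers.

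Values that did not pass the test changed sign in some fits. Nr3c1 at 34 weeks was 0.024 with macrophage and 0.0022 with adipocyte markers, and Nr3c2 at 8 weeks was 0.070 and 0.046. Nr3c2 at 20 weeks was -0.17 with TMM, -0.13 with median-of-ratios factors, -0.18 with edgeR, -0.15 with DESeq2 and -0.076 to 0.082 without single mice. At 34 weeks Nr3c2 was 0.071 with the replicate block, 0.11 with macrophage and 0.25 with adipocyte markers, and -0.16 to 0.072 without single mice. Tsc22d3 at 34 weeks was -0.077 with TMM, -0.078 with median-of-ratios factors, -0.11 with the replicate block, edgeR or DESeq2, -0.29 with macrophage and -0.19 with adipocyte markers, and -0.045 to 0.10 without single mice. Sgk1 at 8 weeks was -0.52 with macrophage and -0.20 with adipocyte markers.

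Of the correlated pairs, 2 of 5 passed with the macrophage mean removed, 3 without the HFD mice of 8 weeks, 3 without the CD mice and 2 without the HFD mice of 20 weeks, 3 without the CD mice of 34 weeks, and 3 without the HFD mice of 34 weeks. Whether mouse numbers pair the diets was not stated, and the main fit used no pairing. The deviations from group means of 18 same-numbered pairs had correlations of -0.51 to 0.53 over the genes tested, and 8 exceeded 0.1. These values cannot settle the question, since pairs with different numbers were not compared. Nr3c2, with 70 to 234 reads per mouse, was the member with the least depth.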
